A study of Rattus norvegicus with 6 samples.

Results

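Endothelial and blood-brain barrier genes were examined as 10 members, Cldn5, Ocln, Tjp1, Mfsd2a, Pecam1, Tek, Tie1, Flt1, Kdr and Egfl7, taken by symbol from the 19382 genes of a rat brain RNA sequencing table. Of the 6 libraries 3 were labelled hypoxia-ischemia (HI) and 3 control. The HI group consisted of SD rats, exposed at 7 days of age to ischemia with hypoxia lasting 2.5 h, a model of brain injury at birth. The labels give brain tissue as the source and name neither the region, the side of the brain, the interval before sampling, nor the age and handling of the controls. They also do not state whether each library is a separate animal, so p-values describe the spread between these libraries, which may in part be technical. The libraries held 13922663 to 14927469 estimated reads, and 3 reads correspond to 0.182 to 0.227 CPM (read counts scaled to a common library size and composition).

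Brain capillary endothelial cells form the blood-brain barrier. Tight junction proteins seal the cleft between neighbouring cells, few caveolae (membrane pits that carry cargo across the cell) are formed, and dedicated transporters move nutrients. Growth factor receptors of the VEGF and Tie families hold the vessel in a sprouting or a resting state, and neuroepithelial Wnt ligands acting on endothelial beta-catenin induce the barrier programme.

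Egfl7, a secreted protein with EGF-like repeats made by endothelial cells, is the member that rose. Its gene span in the RefSeq annotation of GRCr8 also holds miR-126, an endothelial microRNA, which these mRNA libraries do not measure. Its mature arms are shown because they come from the same transcription unit, with the seed (bases 2 to 8) in capitals. They are rno-miR-126a-5p at chr3:29813182-29813202 and rno-miR-126a-3p at chr3:29813219-29813240, both on the plus strand of GRCr8.
rno-miR-126a-5p: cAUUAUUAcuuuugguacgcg
rno-miR-126a-3p: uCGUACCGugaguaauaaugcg

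Promoter windows of 250 bases upstream of the RefSeq start (GRCr8) were found for 7 of the 10 members, Egfl7 having a pair of starts. Tek, Pecam1 and Mfsd2a had no window and were not searched. The 8 windows found were searched on both strands for AGGAAG, a core bound by ETS factors, which are regulators of endothelial genes. The letters occurred in 3 of the 8 member windows, in Egfl7, Tie1 and Flt1, against 29.5% of 33469 windows in the table. ACGTG, the core of the hypoxia response element, occurred in 0 of the 8 (16.6% of all windows), and CTTTGA, a TCF/LEF core, in 1, that of Tjp1 (13.9% of all windows). The windows with AGGAAG, and the other Egfl7 start, are given 5′ to 3′ with these letters or their reverse complement CTTCCT in capitals. Whether these letters bear on the values below was not tested.
Egfl7, first start (chr3:29805381-29805630, plus strand): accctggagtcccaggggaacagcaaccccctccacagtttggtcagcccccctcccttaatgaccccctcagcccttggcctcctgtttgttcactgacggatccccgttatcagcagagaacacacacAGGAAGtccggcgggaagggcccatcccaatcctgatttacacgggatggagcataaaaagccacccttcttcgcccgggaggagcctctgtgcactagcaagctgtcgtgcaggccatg
Egfl7, second start (chr3:29808051-29808300, plus strand): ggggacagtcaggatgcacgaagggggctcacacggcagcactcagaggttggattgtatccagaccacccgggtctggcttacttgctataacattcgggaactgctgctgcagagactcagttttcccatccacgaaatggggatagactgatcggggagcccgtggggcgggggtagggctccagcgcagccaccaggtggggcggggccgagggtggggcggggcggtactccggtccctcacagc
Tie1 (chr5:137304982-137305231, minus strand): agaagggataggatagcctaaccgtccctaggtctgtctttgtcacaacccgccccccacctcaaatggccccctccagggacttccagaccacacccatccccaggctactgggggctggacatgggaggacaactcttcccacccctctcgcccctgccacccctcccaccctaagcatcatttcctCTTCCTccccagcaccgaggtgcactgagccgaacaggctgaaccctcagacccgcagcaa
Flt1 (chr12:12333180-12333429, plus strand): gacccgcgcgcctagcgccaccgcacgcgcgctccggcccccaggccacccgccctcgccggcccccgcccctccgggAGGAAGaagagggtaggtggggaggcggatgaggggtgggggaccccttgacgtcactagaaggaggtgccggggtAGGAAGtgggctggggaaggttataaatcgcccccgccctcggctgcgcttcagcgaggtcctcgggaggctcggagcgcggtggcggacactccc

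The comparison of HI with control asks which transcripts differ in the injured brain. Of the 10 members, all of which passed the filter on low counts, 1 rose (Egfl7), 1 fell (Mfsd2a) and 8 did not pass the test (quasi-likelihood F test of edgeR, two-sided, with p adjusted by Benjamini-Hochberg over 14959 genes and a threshold of 0.05). Among all genes tested, 6.83% were called higher and 7.04% lower in HI, so 1 of 10 in each direction is near the background. The median log2 fold change of the members was 0.74, beside 0.04 for all tested genes. A positive value was seen for 8 of the 10, beside 7967 of the 14959 genes. The groups did not overlap for 4 members, Egfl7, Pecam1 and Tek with HI higher and Mfsd2a with HI lower. Of all tested genes 42.3% had groups that did not overlap, 21.5% with HI higher and 20.8% with HI lower. In bulk tissue, a changed number of endothelial cells and a changed amount of RNA per cell cannot be told apart. CPM are shares of a library, so a changed amount of RNA from other cells cannot be told apart from these either. The summed level of 6 neuron markers was 1140 to 2153 CPM in HI and 3617 to 5081 CPM in control. Its part in the member values was not tested.

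**Figure D1:**
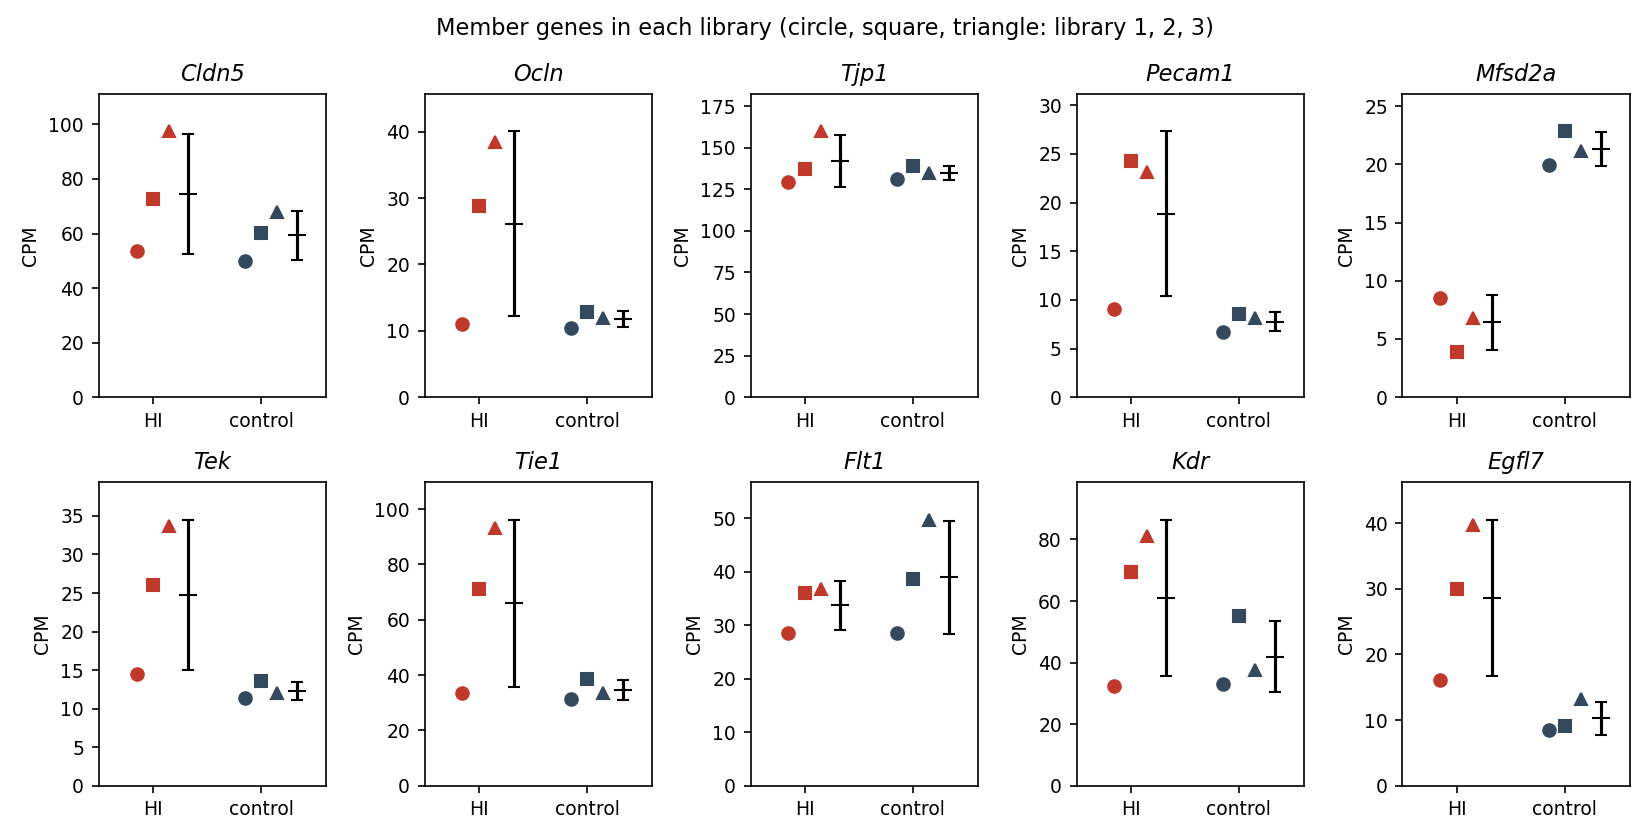
Level of each member in CPM (vertical axes start at 0) in the 3 HI and the 3 control libraries, with the group mean and SD as a bar. Mfsd2a lies between 3.92 and 8.56 CPM in HI, under all controls, and in most other panels HI 2 and HI 3 lie above HI 1.

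Mfsd2a carries lysophosphatidylcholine with docosahexaenoic acid into the brain and, in mice, restrains caveolar transport across brain endothelium. It had 8.56, 3.92 and 6.79 CPM in HI 1, 2 and 3, against 19.9, 22.8 and 21.1 CPM in controls 1, 2 and 3. Every HI library lay below every control, with a wide gap between the groups. Mfsd2a thus averaged 6.42 ± 2.34 CPM in HI and 21.3 ± 1.46 CPM in control (SD, n = 3 each) and fell to 0.302 of the control level, a log2 fold change of -1.73 ± 0.29 (SE, edgeR adjusted p = 0.0238). The fall passed also by DESeq2 (adjusted p = 1.8e-06) and limma-voom (adjusted p = 0.0289). It did not pass by edgeR without control 1, control 2, HI 2 or HI 3 (adjusted p = 0.0941, 0.0950, 0.0784 and 0.0533) or with the level of choroid plexus markers as a covariate (adjusted p = 0.0838). Mfsd2a was the lowest of the member values in each HI library relative to the control mean, at -1.26, -2.30 and -1.58 on the log2 scale in HI 1, 2 and 3.

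None of the 3 tight junction members was called by edgeR, and their values differed among themselves. Cldn5, the claudin that seals the endothelial cleft against small molecules, had 53.6, 72.6 and 97.4 CPM in HI 1, 2 and 3, against 50.1, 60.1 and 67.9 CPM in controls 1, 2 and 3. The groups overlapped, HI 1 lying inside the control range, and the log2 fold change was 0.33 ± 0.23 (SE, edgeR adjusted p = 0.341). Ocln, the occludin that spans the membrane at the junction strand, had 11.1, 28.8 and 38.5 CPM in HI 1, 2 and 3, against 10.4, 12.9 and 11.9 CPM in controls 1, 2 and 3. HI 2 and HI 3 stood well above the controls while HI 1 did not, and the log2 fold change of 1.15 ± 0.42 (SE) missed the threshold by edgeR (adjusted p = 0.105) and by limma-voom (adjusted p = 0.217) and passed by DESeq2 (adjusted p = 0.0387). Tjp1, the scaffold ZO-1 that ties junction proteins to actin in many cell types, had 129.5, 137 and 159.8 CPM in HI 1, 2 and 3, against 131, 139 and 135 CPM in controls 1, 2 and 3. These values were close together in all libraries, and its log2 fold change was 0.08 ± 0.11 (SE, edgeR adjusted p = 0.642). The log2 difference of Ocln minus Cldn5 within a library was -2.22, -1.32 and -1.33 in HI 1, 2 and 3, against -2.21, -2.18 and -2.46 in controls 1, 2 and 3, so HI 1 was at the control level here too.

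Pecam1, an adhesion molecule of endothelial junctions that platelets and leukocytes also carry, had 9.09, 24.3 and 23.1 CPM in HI 1, 2 and 3, against 6.66, 8.54 and 8.09 CPM in controls 1, 2 and 3. All HI libraries were above the controls, HI 1 only slightly. Its log2 fold change of 1.28 ± 0.38 (SE) did not pass by edgeR (adjusted p = 0.0653) and passed by DESeq2 (adjusted p = 0.0113). The leukocyte gene Ptprc, a member of a list of 10 microglia and macrophage markers of which 7 rose and 0 fell, was at 15.7 ± 4.67 CPM in HI and 3.02 ± 0.34 CPM in control (SD, n = 3 each), and the part of such cells in the Pecam1 values was not tested.

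The Tie receptors act as a pair. Tek (Tie2) binds angiopoietins, and Tie1 is its co-receptor with no angiopoietin binding of its own. Tek had 14.4, 26.1 and 33.8 CPM in HI 1, 2 and 3, against 11.4, 13.6 and 11.98 CPM in controls 1, 2 and 3. Its groups did not overlap, and the log2 fold change of 1.01 ± 0.31 (SE) did not pass (edgeR adjusted p = 0.0684). Tie1 had 33.4, 71.3 and 93.0 CPM in HI 1, 2 and 3, against 31.5, 38.4 and 33.6 CPM in controls 1, 2 and 3. HI 1 lay within the control range, and the log2 fold change was 0.93 ± 0.35 (SE, edgeR adjusted p = 0.109). The log2 difference of Tek minus Tie1 was -1.18, -1.43 and -1.45 in HI 1, 2 and 3, against -1.43, -1.47 and -1.45 in controls 1, 2 and 3, so HI 1 was highest and the other 5 libraries lay close together.

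Among the VEGF receptors, Kdr (VEGFR2) transmits most of the growth signal and Flt1 (VEGFR1) binds the ligand tightly with weak signalling. Kdr had 32.4, 69.3 and 81.1 CPM in HI 1, 2 and 3, against 33.1, 55.0 and 37.6 CPM in controls 1, 2 and 3. HI 1 was the lowest of the 6 libraries and HI 3 the highest, with a log2 fold change of 0.54 ± 0.36 (SE, edgeR adjusted p = 0.317). Flt1 had 28.5, 36.0 and 36.8 CPM in HI 1, 2 and 3, against 28.6, 38.6 and 49.7 CPM in controls 1, 2 and 3. The groups overlapped, and its log2 fold change was -0.21 ± 0.22 (SE, edgeR adjusted p = 0.530). Flt1 minus Kdr on the log2 scale was -0.18, -0.94 and -1.13 in HI 1, 2 and 3, against -0.21, -0.51 and 0.40 in controls 1, 2 and 3, which overlap through HI 1.

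Egfl7 had 16.1, 30.0 and 39.7 CPM in HI 1, 2 and 3, against 8.48, 9.13 and 13.2 CPM in controls 1, 2 and 3. All HI libraries lay above all controls, HI 1 closest to them. It averaged 28.6 ± 11.9 CPM in HI and 10.3 ± 2.55 CPM in control (SD, n = 3 each) and rose 2.79-fold, a log2 fold change of 1.48 ± 0.36 (SE, edgeR adjusted p = 0.0427). The rise passed by DESeq2 (adjusted p = 1.1e-03) and not by limma-voom (adjusted p = 0.0737). By edgeR it did not pass without control 1, control 2, control 3, HI 2 or HI 3 (adjusted p = 0.137, 0.136, 0.0538, 0.117 and 0.101) or with the choroid plexus covariate (adjusted p = 0.254).

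**Figure D2:**
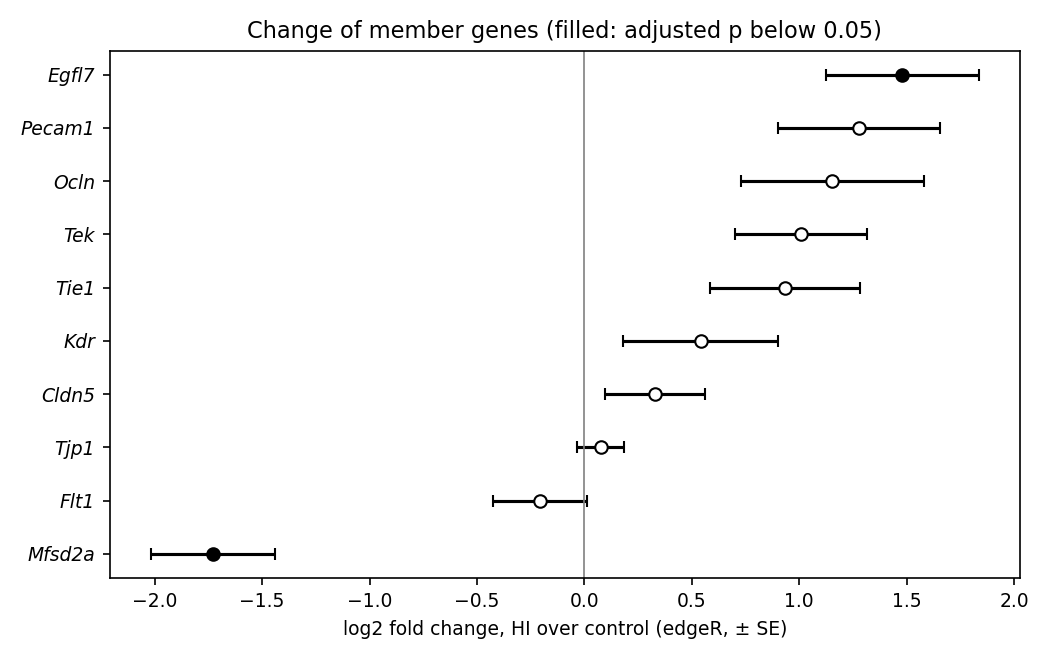
Log2 fold change of each member, HI over control, from edgeR, with its SE, ordered by value. Filled points mark the called members, Egfl7 at 1.48 and Mfsd2a at -1.73, and the others lie between -0.21 and 1.28.

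The HI libraries were not alike. In HI 1, 3 members were above all controls, 3 within the control range and 4 below it, whereas in HI 2 and HI 3, 7 and 8 members were above all controls and 1, Mfsd2a, below them in each. For 8 members the level was highest in HI 3, then HI 2, then HI 1. Without HI 1, 5 members passed as higher (Ocln, Pecam1, Tek, Tie1 and Egfl7) and Mfsd2a as lower (edgeR adjusted p from 0.0105 to 0.0139). Calls over all genes also grew in that fit, to 3689 of 15265, beside 2074 of 14959 in the main fit. Of the 3689, 56.8% were higher in HI. Without control 1, control 2, HI 2 or HI 3, 0 members passed in either direction by edgeR, and without control 3 only Mfsd2a did (edgeR adjusted p = 0.0395). By DESeq2, Ocln, Pecam1, Tek, Tie1 and Egfl7 were called higher and Mfsd2a lower, while 4200 of all 14959 genes were called, 49.4% of them higher.

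Markers of the choroid plexus, a secretory epithelium of the ventricles whose own vessels are fenestrated, moved with this order. The summed level of 8 such genes was 179, 8150.1 and 15296 CPM in HI 1, 2 and 3, against 11.97, 2173 and 5.91 CPM in controls 1, 2 and 3, and of its 8 markers only Cldn2 in control 3 had no read. None of the 8 passed (0 by edgeR, DESeq2 and limma-voom, and 0 at an unadjusted p below 0.05), with a median log2 fold change of 3.26. Control 2 was the control with the highest sum. On the log2 scale it differed from the mean of controls 1 and 3 by 0.63 for Kdr. The other members differed by -0.20 to 0.24. With the mean level of that list as a covariate, 0 members passed (Mfsd2a -1.59, Egfl7 1.06, Ocln 0.30 and Kdr -0.22 on the log2 scale, edgeR adjusted p = 0.0838, 0.254, 0.712 and 0.564), and 52 of all genes did. The libraries also differ in Y-linked reads, which summed to 115 CPM in HI 2, 115 CPM in HI 3 and 107 CPM in control 3. The other libraries held at most 0.227 CPM of Y-linked reads and are counted as without them. Between the libraries without them (HI 1 against controls 1 and 2) Mfsd2a differed by -1.27, Egfl7 by 0.84 and the median member by -0.06 on the log2 scale, and between those with them (HI 2 and HI 3 against control 3) by -1.93, 1.36 and 1.13. Each of these sets has a lone library on 1 side, so these are values with no test. With Y-linked reads as a covariate, Mfsd2a (adjusted p = 0.0443) and Egfl7 (adjusted p = 0.0470) still passed by edgeR. The part of choroid plexus tissue in the member values was not tested beyond that covariate.

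**Figure D3:**
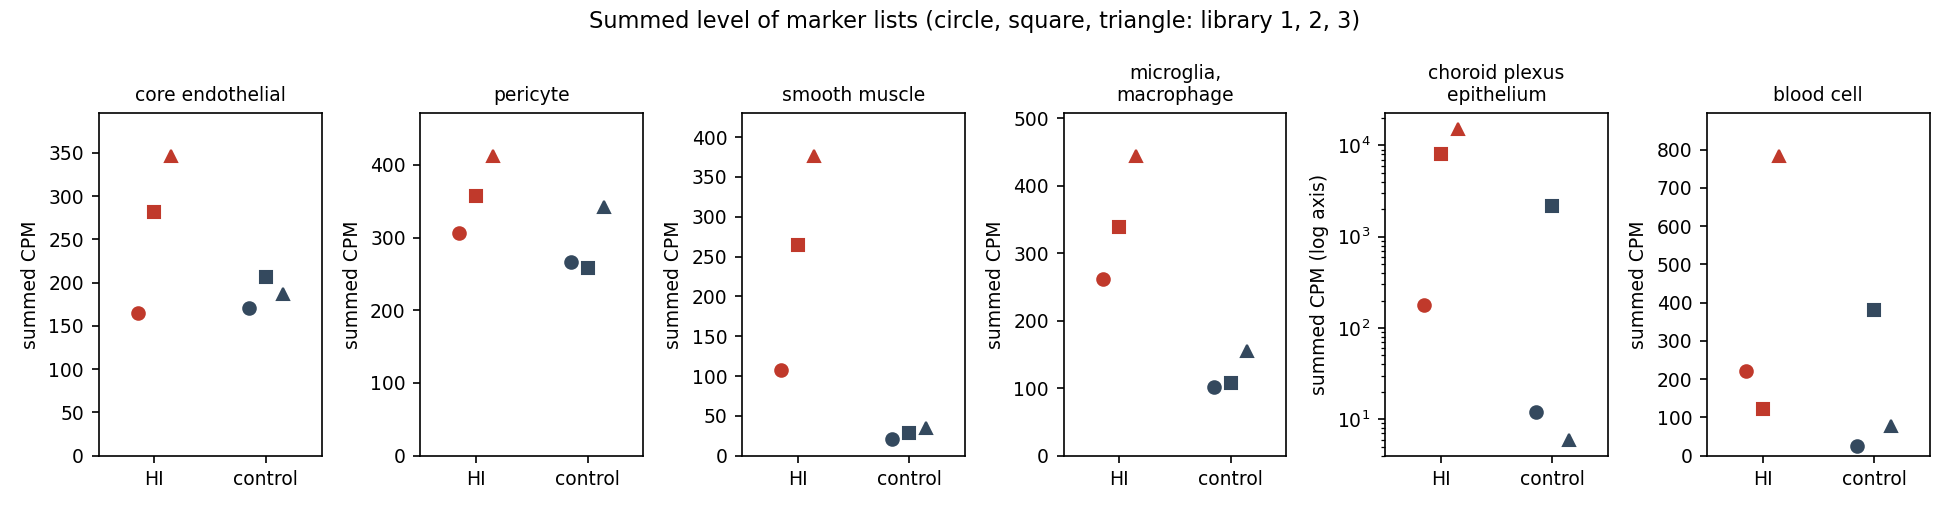
Summed CPM of marker lists in each library, with HI left of control in each panel and a log axis for choroid plexus epithelium only. The core endothelial sum is 164 in HI 1 and 282 and 347 in HI 2 and HI 3, against 171 to 206 in the controls, and the choroid plexus sum spans 5.91 to 15296 CPM.

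To set the members beside other endothelial transcripts, 17 core endothelial genes that are not members were used. Of 16 tested, 1 rose, Cdh5 (VE-cadherin, the adhesion protein of endothelial junctions), and 0 fell by edgeR (2 and 0 by DESeq2, 0 and 0 by limma-voom), with a median log2 fold change of 0.69. Cdh5 averaged 26.0 ± 9.54 CPM in HI and 11.2 ± 2.12 CPM in control (SD, n = 3 each, log2 fold change 1.22 ± 0.31 SE, edgeR adjusted p = 0.0485), and Clec14a, an endothelial lectin-like receptor, missed the threshold at a log2 fold change of 1.82 ± 0.51 (SE, edgeR adjusted p = 0.0596). The mean log2 level of the core genes differed from its control mean by -0.06, 0.76 and 1.10 in HI 1, 2 and 3, and by -0.20, 0.15 and 0.05 in controls 1, 2 and 3. The median of the members thus lay close to that of the core genes.

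Relative to the mean log2 level of those 16 genes in the same library, Mfsd2a was at 0.29, -1.56 and -1.18 in HI 1, 2 and 3, against 1.61, 1.45 and 1.43 in controls 1, 2 and 3, a difference of -2.31. Flt1 differed by -0.78 on this scale, with values of 1.18 to 1.97 in HI against 2.12 to 2.65 in control, and its groups did not overlap. Egfl7 differed by 0.77, Pecam1 by 0.51 and Tek by 0.30, each with groups that did not overlap. Cldn5 (-0.31), Tjp1 (-0.53), Kdr (-0.13), Tie1 (0.21) and Ocln (0.35) had overlapping groups. The share of all genes without overlap was not computed on this scale. In CPM it was 42.3%, so the lack of overlap is not read as a trait of the members. With 3 against 3 libraries an exact permutation test cannot give a p under 0.10, so none was run. With Cdh5 alone in place of the list, Mfsd2a differed by -2.84, Flt1 by -1.31 and Egfl7 by 0.24. Pecam1, Tek, Ocln and Tie1 turned to -0.02, -0.22, -0.17 and -0.32. Cldn5, Tjp1 and Kdr were then at -0.83, -1.06 and -0.66.

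**Figure D4:**
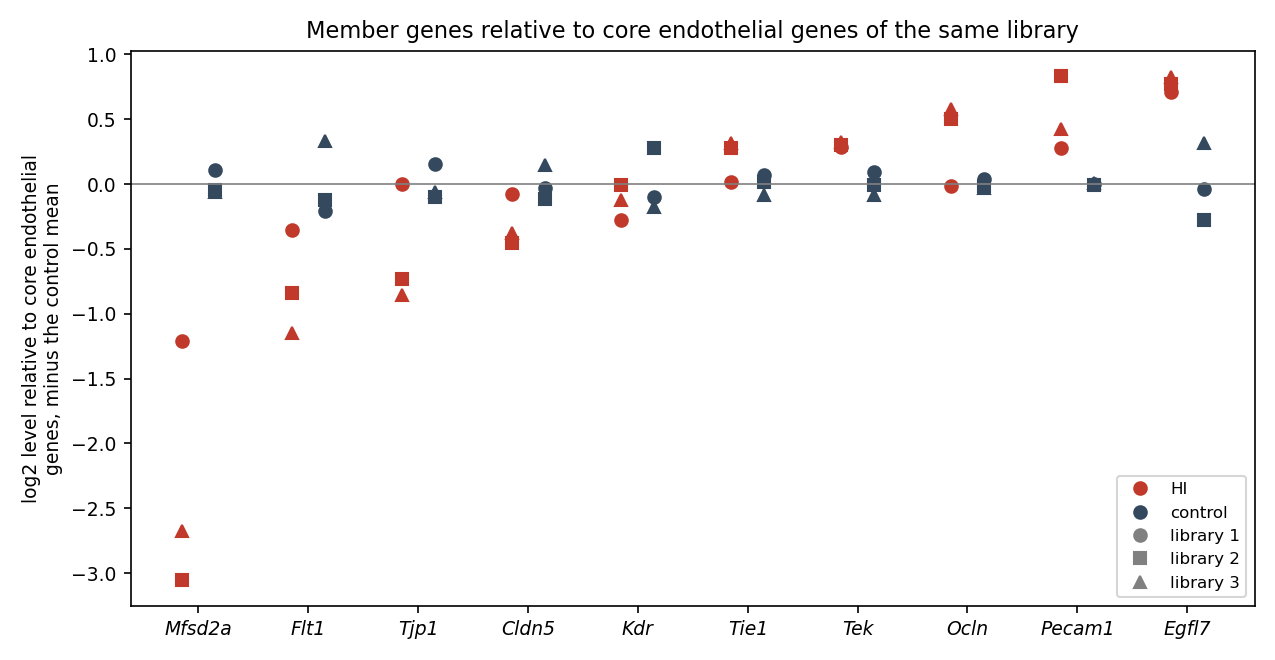
Log2 level of each member relative to the mean of 16 core endothelial genes in the same library, minus the control mean, by library. Mfsd2a lies lowest in all 3 HI libraries, and the members further right approach or exceed the control values.

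The profile of the members over the 6 libraries was alike for most of them. The Pearson correlation of a member's log2 level with the mean of the others was 0.82 to 0.97 for 8 members. It was 0.26 for Flt1 and -0.76 for Mfsd2a. This describes 6 libraries of HI and control together, so differences between the groups and among the HI libraries enter it. Among 14543 other tested genes with a mean of at least 1 CPM, the 5 whose profile was most like the mean of the members were Cd320 (r = 0.995), Ccdc125 (0.993), Sox18 (0.992), St3gal6 (0.992) and Sgo2 (0.991). Sox18 is an endothelial transcription factor and 1 of the core genes. None of the 5 was called (edgeR adjusted p from 0.137 to 0.251).

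The lists that follow rest on the same fit, in which 0, 1 and 0 of all genes passed by edgeR without control 1, control 2 or HI 2, with 3962, 4008 and 4175 at an unadjusted p below 0.05. As background for their counts, edgeR called 6.83% of all 14959 genes higher and 7.04% lower. DESeq2 called 4200 of these genes and limma-voom 1371, of which 49.4% and 40.3% were higher in HI. Of 19 other tight junction genes tested, 3 rose and 0 fell by edgeR (7 and 1 by DESeq2, 2 and 0 by limma-voom), with a median log2 fold change of 0.61. Among them Cgn (cingulin), a cytoplasmic linker, rose 1.77-fold, and Jam2, a junction adhesion molecule, rose 1.52-fold (edgeR adjusted p = 0.0336 and 0.0443). All 3 HI libraries lay above all controls for both genes. Cingulin is not particular to endothelium, and the part of other cells in the values of both genes was not tested.

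Of 9 tested genes of caveolae, transcytosis and fenestration, 4 rose and 0 fell by edgeR (7 and 0 by DESeq2, 1 and 0 by limma-voom), and the median log2 fold change was 1.47. The caveolar coat genes Cavin1, Cavin2 and Cavin3, listed under older symbols in the table, rose 4.13-fold, 2.50-fold and 3.41-fold, and Ehd2, an ATPase that anchors caveolae at the membrane, rose 7.51-fold (edgeR adjusted p = 0.0312, 0.0309, 0.0270 and 0.0238). Ehd2 had 10.3, 31.7 and 33.3 CPM in HI 1, 2 and 3, against 2.65, 3.09 and 4.27 CPM in controls 1, 2 and 3, and the HI libraries stood above the controls by a wide margin. Plvap, which forms the diaphragms of fenestrated vessels, averaged 9.07 ± 4.39 CPM in HI and 2.73 ± 1.15 CPM in control (SD, n = 3 each) and did not pass (log2 fold change 1.73 ± 0.49 SE, edgeR adjusted p = 0.0593). Caveolae also abound in smooth muscle, and 6 of 6 smooth muscle markers rose, with a summed level of 107 to 376 CPM in HI and 21.1 to 34.7 CPM in control. The part of mural cells in these values was not tested. Of 12 pericyte markers 0 rose and 0 fell by edgeR, DESeq2 called 2 higher and limma-voom 0, and 3 had an unadjusted p below 0.05 by edgeR. Their median was 0.36, and the smallest edgeR adjusted p were those of Des (0.0581) and Pdgfrb (0.107).

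**Figure D5:**
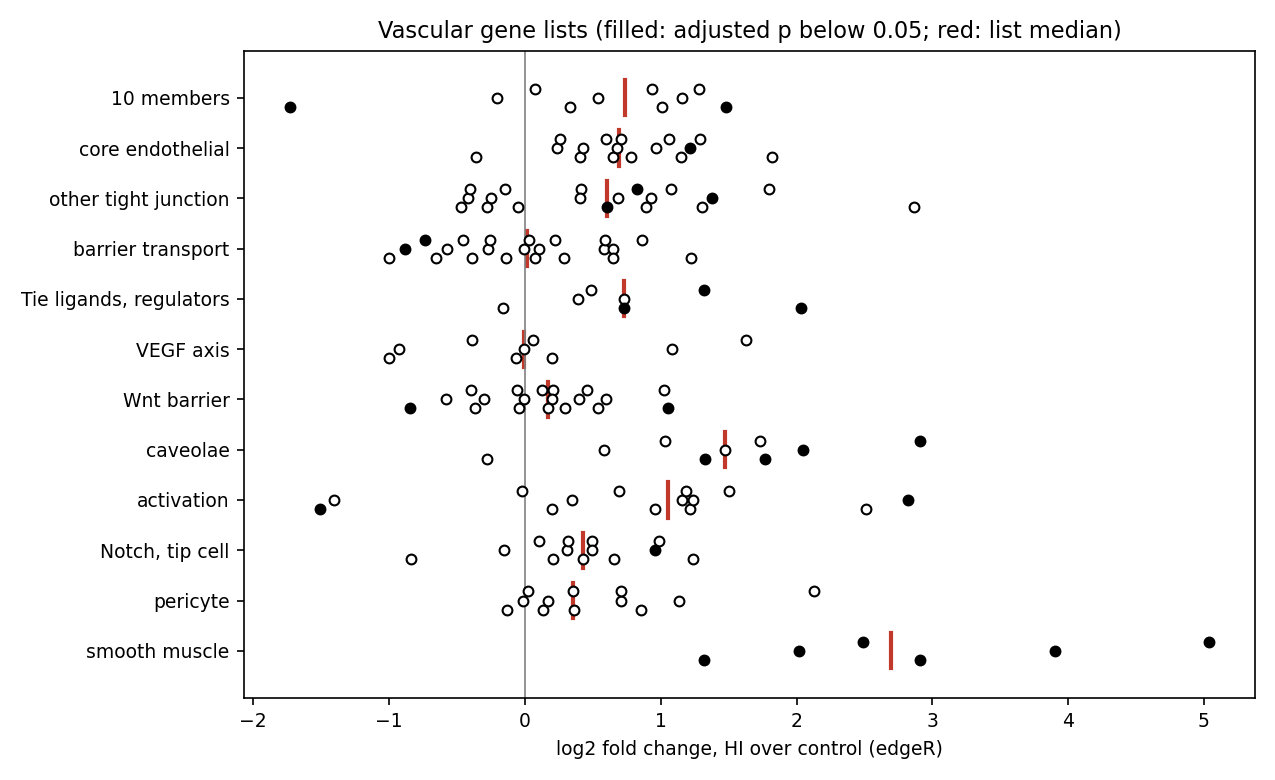
Log2 fold change (HI over control) of each tested gene in the members and 11 other vascular lists, filled where called, with the list median as a red line. The medians run from -0.01 for the VEGF axis to 2.70 for smooth muscle markers.

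Of 22 barrier transporters and receptors tested, 0 rose and 2 fell by edgeR (3 and 2 by DESeq2, 0 and 0 by limma-voom), with a median log2 fold change of 0.01. Slc7a1, an importer of cationic amino acids, fell to 0.601 and Tfrc, the transferrin receptor that imports iron, fell to 0.541 of the control level (edgeR adjusted p = 0.0448 and 0.0479). Slc7a1 had 77.6, 110.1 and 90.0 CPM in HI 1, 2 and 3, against 146, 184 and 131 CPM in controls 1, 2 and 3, with no overlap. Both are made by other brain cells as well. Mfsd2a, with -1.73, lay below each of the 22 values, the lowest of which was -1.0 for Slc19a3, a thiamine transporter named after its value was seen (edgeR adjusted p = 0.253).

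Ligands and regulators of the Tie receptors included 3 genes that rose and 0 that fell by edgeR among 7 tested (3 and 0 by DESeq2, 0 and 0 by limma-voom), with a median log2 fold change of 0.73. Ptprb (VE-PTP), the endothelial phosphatase that opposes Tek signalling, had 32.8, 43.1 and 47.4 CPM in HI 1, 2 and 3, against 22.6, 23.6 and 28.2 CPM in controls 1, 2 and 3 (log2 fold change 0.73 ± 0.17 SE, edgeR adjusted p = 0.0417). Tnip2, an inhibitor of NF-kB signalling that interacts with Tek, rose 2.49-fold (edgeR adjusted p = 0.0448). Angpt4 rose 4.09-fold (edgeR adjusted p = 0.0482) from at most 12 reads in a control, so its size is uncertain. The main ligands Angpt1, an activator, and Angpt2, a context-dependent antagonist, had log2 fold changes of 0.39 ± 0.32 and 0.49 ± 0.45 (SE) and did not pass (edgeR adjusted p = 0.411 and 0.463).

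In the VEGF axis 0 of 9 tested genes were called by edgeR and 0 by limma-voom, while DESeq2 called 1 higher and 2 lower and 3 had an unadjusted p below 0.05 by edgeR. The median log2 fold change was -0.01. Vegfa, the main ligand of Kdr and Flt1, had 90.9, 89.6 and 93.5 CPM in HI 1, 2 and 3, against 101, 123 and 135 CPM in controls 1, 2 and 3. All HI libraries were below all controls, and the log2 fold change of -0.39 ± 0.12 (SE) did not pass (edgeR adjusted p = 0.0747). Pgf, a ligand of Flt1, had a log2 fold change of 1.63 ± 0.51 at 2.57 ± 0.84 CPM in HI and 0.82 ± 0.45 CPM in control (SD, n = 3 each, edgeR adjusted p = 0.0733), and Vegfb and Vegfc had 0.06 and -0.07.

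Among 19 genes of the Wnt barrier pathway 1 rose and 1 fell by edgeR (1 and 2 by DESeq2, 1 and 0 by limma-voom), with a median of 0.17. Tspan12, a co-receptor of the Norrin and Fzd4 complex, averaged 62.0 ± 2.95 CPM in HI and 29.9 ± 7.74 CPM in control (SD, n = 3 each, edgeR adjusted p = 0.0270). Apcdd1, a Wnt inhibitor that barrier endothelium expresses, fell to 0.556 of the control level (edgeR adjusted p = 0.0458). Of 14 tested genes of endothelial activation 1 rose and 1 fell by edgeR (4 and 2 by DESeq2, 0 and 1 by limma-voom), with a median of 1.05. Icam1, the leukocyte adhesion receptor, rose 7.05-fold (edgeR adjusted p = 0.0274) and Apln, the apelin ligand of tip cells, fell to 0.352 of the control level (edgeR adjusted p = 0.0238). The part of cells other than endothelium, such as microglia and macrophages, in the Icam1 values was not tested. Of 13 Notch and tip cell genes 1 rose, the netrin receptor Unc5b (1.95-fold, edgeR adjusted p = 0.0404), and 0 fell by edgeR (3 and 1 by DESeq2, 0 and 0 by limma-voom), with a median of 0.43. Nrarp, a Notch target, had a log2 fold change of -0.84 ± 0.25 (SE, edgeR adjusted p = 0.0654).

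Marker lists of other cells gave the following counts. Of 7 fibroblast markers 0 rose and 0 fell by edgeR, 0 were called by DESeq2 or limma-voom, and 0 had an unadjusted p below 0.05, with a median of 1.30 and summed levels of 293 to 765 CPM in HI and 209.6 to 407 CPM in control. Of 8 astrocyte and endfoot markers 1 rose (Aqp4) and 1 fell (Kcnj10) by edgeR (3 and 1 by DESeq2, 1 and 1 by limma-voom). Of 6 neuron markers 0 rose and 4 fell by edgeR (0 and 6 by DESeq2, 0 and 4 by limma-voom). Of 3 lymphatic markers tested 1 rose, Pdpn, which astrocytes also express, and 0 fell by edgeR. DESeq2 called 1 lymphatic marker higher and 1 lower, and limma-voom called 0. Of 4 blood cell markers tested 0 were called by edgeR and 0 by limma-voom. DESeq2 called 1 of them, and only Itga2b had an unadjusted p below 0.05 by edgeR. The summed blood cell level was 220.0, 123 and 784 CPM in HI 1, 2 and 3, against 25.0, 379.6 and 78.3 CPM in controls 1, 2 and 3.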

How the data were processed

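RNA was measured in 6 rat brain libraries, from TRIzol extracts and a SMARTER mRNA-Seq preparation, per the labels' protocols. HISAT2 2.1.0, SAMtools 1.10, StringTie 2.2.1 and the assembly Rnor 6.0 are named per the submitters' processing notes. The tool and settings for counting, and the treatment of strand, were not given in the sources used here. Per gene, the authors deposited estimated counts, unscaled. Fractional entries, present in 2410 of 19382 genes, may mark reads shared between genes. None of the 10 members has any, and among the genes with a value here Vegfb does. All 6 columns were matched to samples by name.

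Estimated counts were rounded, filtered (filterByExpr, minimum count 10), scaled by TMM and tested with edgeR 4.0.16 in R 4.3.3 (quasi-likelihood F test, two-sided, Benjamini-Hochberg) over 14959 genes, with group as the only term. CPM use the TMM factors. Values relative to core genes use log2(CPM + 0.5). SE were derived from the F statistic. Alternatives used DESeq2 1.42.0 and limma 3.58.1, other scalings, filters and thresholds, a replicate block, covariates and leaving out each library. The fit was also run on simulated counts with the same relative spread for all genes and no differing library. That case is simpler than these data, so no conclusion is drawn from it. No library pair was a duplicate (chi-square per degree of freedom 13.4 to 162).

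Members and lists were chosen with earlier results of these data known. Named were all members, up to 6 called genes of each list or otherwise the 2 with the smallest p, and fixed ligands, Cdh5 and Plvap. Of these, Col3a1, Pdgfra, Alas2, Prox1, and the single markers of smooth muscle, microglia other than Ptprc, neurons and choroid plexus are given as list counts only. One called tight junction gene is not reported here by name. Floors cover counting error only, and reads without molecular identifiers are not independent molecules.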

Additional observations from a re-analysis of the deposited data

How the results depend on the processing

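Of all genes 2074 were called. The count was 4200 with DESeq2, 1371 with limma-voom, 4366 at an adjusted p below 0.1, 0 below 0.01, 774 with Y-linked reads as a covariate and 52 with the choroid plexus level as a covariate, and 0 to 3689 when single libraries were left out. Members called higher numbered 3 with scaling by total counts, 5 with DESeq2, 0 with limma-voom, 3 below 0.1, 0 below 0.01, 0 with the choroid plexus covariate and 0 to 5 without single libraries. Members called lower numbered 0 below 0.01, 0 with the choroid plexus covariate and 0 to 1 without single libraries. Over 19 alternatives Mfsd2a passed in 13 (log2 fold change -1.99 to -1.47) and Egfl7 in 11 (1.06 to 1.76). The 19 include the thresholds of 0.1 and 0.01 on the main fit, whose outcomes followed from its adjusted p. Upper-quartile and total-count scaling moved the median of all genes to 0.14 and 0.23 on the log2 scale, and with them 64.3% and 74.7% of the called genes were higher in HI, beside 49.2%.

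Some log2 fold changes that passed no test changed sign, among them Kdr (0.54) and Angpt2 (0.49). With the choroid plexus covariate Tjp1 was at -0.034, Kdr at -0.22, Angpt2 at -0.049 and Vegfb at -0.0053. Vegfc was at 0.034 with upper-quartile scaling and 0.13 with total counts. Without single libraries Tjp1 ran from -0.017 to 0.13, Angpt2 from -0.057 to 0.71, Vegfb from -0.015 to 0.11 and Vegfc from -0.36 to 0.18. The cause was not tested. With the replicate number as a block, 1723 genes, 1 member higher and 1 lower were called. Same-numbered libraries correlated at 0.23, 0.08 and -0.16 in their deviations from the group means, and 3 of 6 correlated best with their own number, so the numbers are not taken as pairs. Depth limits genes with few reads, such as Angpt4.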
